A study of Mus musculus with 16 samples.

Results

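The ADAMTS, ADAMTS-like, MMP and TIMP genes build and restrain the machinery that cuts the extracellular matrix, and their mRNA was described here in skeletal muscle of HFD-fed male mice. Members were taken by gene symbol, namely Adamts, Adamtsl, Mmp and Timp followed by a number, which gave 51 of the 55471 genes in the deposited table. They comprised 19 ADAMTS genes, 5 ADAMTS-like genes, 23 MMP genes and 4 TIMP genes.

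Bulk mRNA-seq was available for 16 mice, 10 labelled heterozygous and 6 labelled wildtype for *Npr1*, the gene of the natriuretic peptide receptor GCA. Both groups were male littermates from a line with a targeted *Npr1* allele (B6.129-Npr1tm1Gar/J) bred onto C57BL/6J. By that design only *Npr1*+/- mice carry the allele, and they carry it in every tissue. An effect in muscle fibres and an effect from elsewhere in the body therefore cannot be told apart. Every mouse received HFD (60% of kcal from lipids) for 12 weeks by the series' design text, which gives the mice as 12 weeks old without saying at which point, so no chow-fed group entered these data. The labels give each mouse a cage (4 cages) and a body weight, which ran from 36.5 to 48.1 g in the mice labelled *Npr1*+/- and from 40.5 to 54.0 g in those labelled *Npr1*+/+. The muscle sampled is not named in the labels, and 1 library was made per mouse.

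Between 15273472 and 59682677 fragments were counted per library, with replicate 5 labelled *Npr1*+/- the deepest. Levels are given as CPM (a count relative to the library's TMM-scaled total) for 1 gene across libraries and as RPKM (CPM per kilobase of gene model) between genes. *Npr1* mRNA was not lower in the libraries labelled *Npr1*+/-, with 9.83 to 22.2 CPM (median 12.0) against 10.4 to 13.4 CPM (median 12.4). As a check, mRNA of the targeted gene therefore did not bear out the labels, and directions below are between libraries as labelled. Replicate 3 labelled *Npr1*+/+ had 30.4 CPM of *Rps3a3*, where the other 5 libraries with that label had at most 0.704 CPM and the 10 labelled *Npr1*+/- had at least 22.8 CPM, and the genotype result over the members is therefore also given without it. Whether each label matches its mouse cannot be told from these values. Muscle fibre transcripts (*Ckm*, *Acta1*, *Myh1*, *Myh2*, *Myh4* and *Ttn*) summed to 50966 to 129552 CPM. Of the marker lists of other cell types, fibroblast, endothelial, mural and macrophage transcripts were all present, whereas the cartilage list had 0 of 4 genes high enough to test.

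MMPs and ADAMTS proteases are secreted or membrane-bound zinc enzymes that are made as inactive proenzymes and cleave collagens, proteoglycans and other matrix proteins. ADAMTS-like proteins share the carboxy-terminal modules of the ADAMTS family but lack the protease domain, and several of them bind microfibrils. TIMPs are small secreted proteins that block the active site of MMPs and, in the case of TIMP3, of several ADAMTS proteases, and in muscle this system is known for remodelling the matrix around fibres and capillaries.

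The feature that separates proteases from the other members is the zinc-binding site, and its coding stretch is shown because *Adamts8*, the member with the smallest p-value by genotype label, has a form of it that no other member had. In the GENCODE M21 transcripts (GRCm38), all 19 ADAMTS and all 23 MMP genes held a stretch of 33 coding bases with the codons of the site in the order histidine, glutamate, any 2, histidine, any 2, a variable codon, any 2, histidine. None of the 5 ADAMTS-like and 4 TIMP genes held it. The capitals mark the codons of the 3 histidines, the glutamate and the variable codon, read 5′ to 3′ on the coding strand.

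Adamts8: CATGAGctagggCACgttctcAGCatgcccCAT
Adamts15: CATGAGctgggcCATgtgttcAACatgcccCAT
Adamts4: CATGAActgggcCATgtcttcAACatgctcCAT
Adamts1: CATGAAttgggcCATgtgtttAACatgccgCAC
Adamts5: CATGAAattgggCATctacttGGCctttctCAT
Mmp13: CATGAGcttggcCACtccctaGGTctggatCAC
Mmp2: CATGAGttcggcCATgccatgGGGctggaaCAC

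The variable codon was GGN, a glycine codon, in all 23 MMP genes and in 13 ADAMTS genes, AAC or AAT (asparagine codons) in 5 ADAMTS genes (*Adamts1*, *Adamts4*, *Adamts9*, *Adamts15* and *Adamts20*) and AGC, a serine codon, in *Adamts8* alone. Of the 33 bases, 27 were identical between *Adamts8* and its chromosomal neighbour *Adamts15*, 25 between *Adamts8* and *Adamts4*, 22 between *Adamts8* and *Adamts1*, 21 between *Adamts8* and *Adamts5*, 20 between *Adamts8* and *Mmp13* and 18 between *Adamts8* and *Mmp2*. The *Adamts8* stretch lies at chr9:30952721-30953378 on the plus strand and is split by an intron, as it was in all 19 ADAMTS genes, whereas it lay within 1 exon in all 23 MMP genes (*Mmp13* at chr9:7276573-7276605).

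Of the 51 members, 33 had enough counts to be tested by edgeR's filterByExpr: 12 ADAMTS, all 5 ADAMTS-like, 12 MMP and all 4 TIMP genes. The 7 ADAMTS genes too low to test were *Adamts3*, *Adamts4*, *Adamts13*, *Adamts16*, *Adamts17*, *Adamts18* and *Adamts19*. The 11 MMP genes too low to test were *Mmp1a*, *Mmp1b*, *Mmp7*, *Mmp8*, *Mmp10*, *Mmp16*, *Mmp20*, *Mmp21*, *Mmp24*, *Mmp25* and *Mmp27*. These 18 genes had between 0 and 164 counts over all 16 libraries, the most in *Adamts3*, which codes for a procollagen N-proteinase. *Mmp1a*, *Mmp1b*, *Mmp7* and *Mmp20* had 0 counts in every library, which allows up to 0.00804 CPM over the 16 libraries together (3 counts over the sum of the TMM-scaled totals) and between 0.0493 and 0.219 CPM in any 1 library, counting error only. *Mmp8*, the neutrophil collagenase, had at most 0.407 CPM, and the neutrophil marker list had 1 of 4 genes high enough to test.

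Inhibitors and a few MMPs led the levels per kilobase. *Timp2*, which blocks MMPs and also takes part in activating MMP2, had the highest mean level, 19.999 ± 4.79 RPKM (SD, n = 16). *Timp4*, a TIMP enriched in muscle and heart, followed at 13.5 ± 3.81 RPKM, *Mmp2* (gelatinase A) at 12.0 ± 1.48 RPKM, *Mmp13* (collagenase 3) at 11.2 ± 7.96 RPKM and *Adamtsl5* at 10.9 ± 1.82 RPKM. The last 4 means differed from one another by less than the larger of their SDs, which measure the spread over mice, and their order was not tested. *Timp3*, the matrix-bound inhibitor, had 6.52 ± 2.53 RPKM and *Timp1*, the soluble inhibitor induced in injury, 4.55 ± 2.13 RPKM. Among the ADAMTS genes, *Adamts1* was highest with 4.97 ± 2.19 RPKM, ahead of *Adamts5* (2.12 ± 0.301 RPKM), the aggrecanase, and *Adamts8* (2.03 ± 0.667 RPKM), which differed by less than their SDs. At the low end of the tested genes stood *Adamtsl2* and *Adamts14*, each at 0.158 RPKM.

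**Figure D1:**
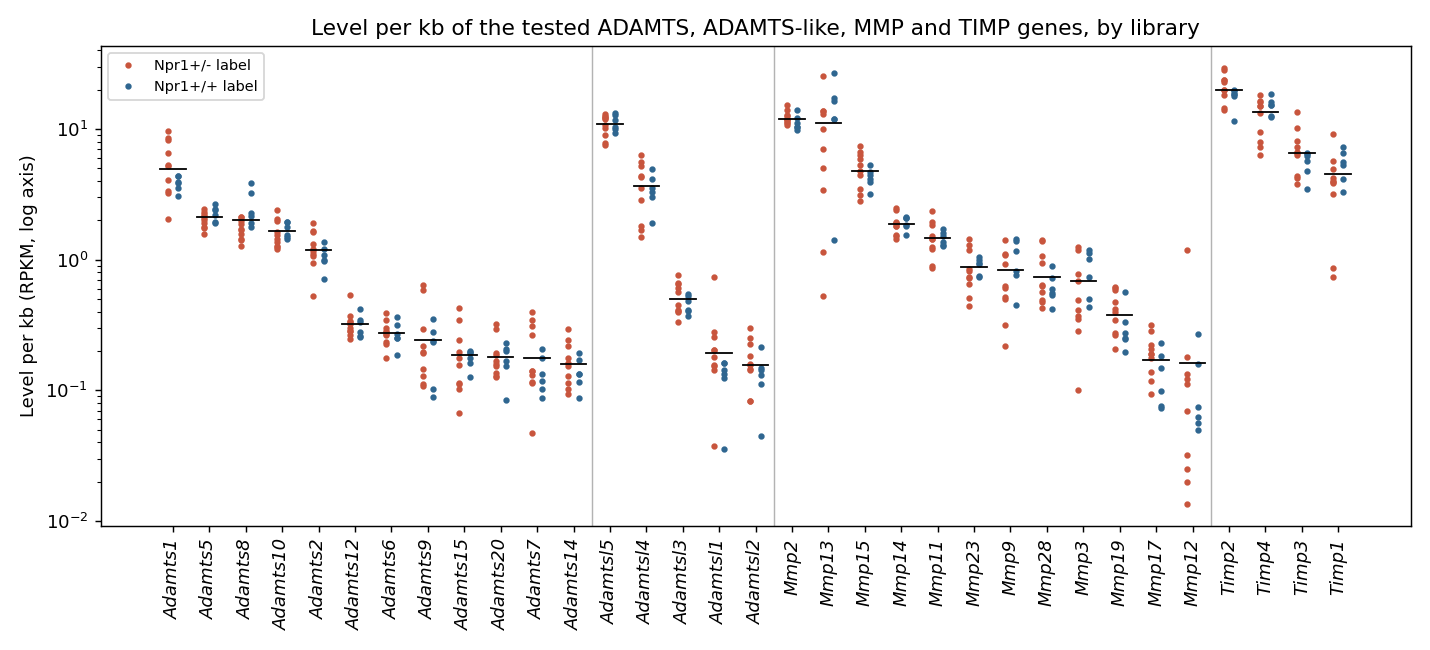
Level per kilobase (RPKM, log axis) of the 33 tested members in each of the 16 libraries, by class and in order of the mean; points are libraries coloured by genotype label and black lines are means over all 16. *Timp2* is highest with a mean of 19.999 RPKM, and *Mmp13* and *Mmp12* have the widest spread.

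Steadiness across mice differed among the members. *Mmp2* had 33.3 to 51.4 CPM (median 39.7), a highest library 1.54 times the lowest, and *Adamts5* had 17.04 to 28.9 CPM (median 22.9), 1.70 times. *Mmp13* had 1.41 to 71.5 CPM (median 32.0), 50.9 times, and *Adamtsl1* had 0.457 to 9.42 CPM (median 2.04), 20.6 times. *Mmp12*, the macrophage elastase, reached 8.67 CPM (143 counts) in replicate 2 labelled *Npr1*+/-, where the other 15 libraries did not exceed 1.95 CPM.

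Between genotype labels, 0 of the 33 tested members had an adjusted p under 0.05 in edgeR's quasi-likelihood test (cage and body weight as covariates, Benjamini-Hochberg adjustment over all 14331 genes), and the same held for 0% of all genes. At an unadjusted p under 0.05, 1 member passed (3.03%), against 1.05% of all genes. That member was *Adamts8*, lower in the libraries labelled *Npr1*+/-. By the sign of the fitted value, 21 members were higher and 12 lower, with a median log2 fold change (*Npr1*+/- label minus *Npr1*+/+ label) of 0.10 and a range from -0.88 to 0.71, against a median of -0.01 over all genes. The fit adjusts for cage and body weight, and for 7 of the 33 members its sign was opposite to the difference of the group means of CPM, where 22 were higher and 11 lower. Without replicate 3 labelled *Npr1*+/+, *Adamts8* was again the only member at an unadjusted p under 0.05, against 1.11% of all genes, and none passed the adjusted threshold, which 3 of all genes did (0.0208%). The log2 fold changes of the 33 members then moved by at most 0.11, with 22 higher, 11 lower and a median of 0.12, and 1 changed sign (*Adamts12*, from -0.05 to 0.02). None of the 39 genes of the matrix list tested without it had an unadjusted p under 0.05 in edgeR. In DESeq2 with the same covariates, 1 member (*Adamts8*) was called, against 0.0419% of all genes.

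**Figure D2:**
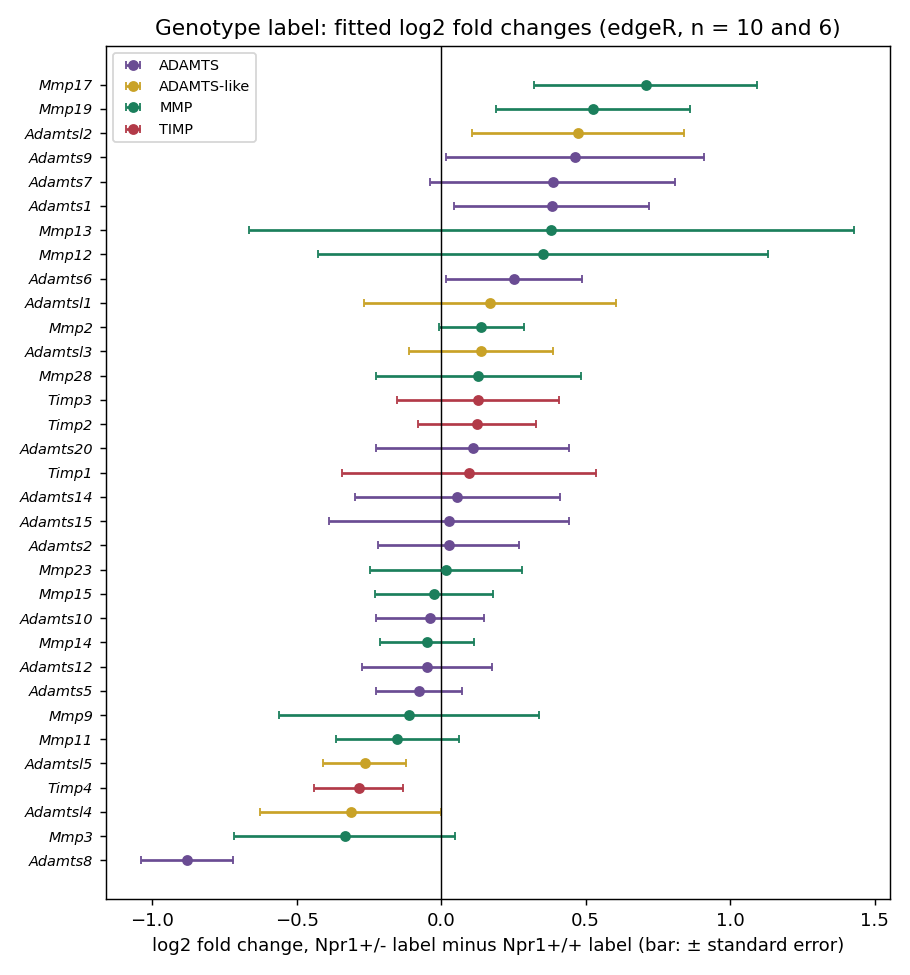
Fitted log2 fold change (*Npr1*+/- label minus *Npr1*+/+ label) of the 33 tested members with its standard error, from edgeR with both covariates, 10 and 6 libraries. *Adamts8* at -0.88 is the lowest and lies apart from the next, *Mmp3* at -0.33; bars of most other members reach or cross 0.

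*Adamts8* codes for a secreted metalloprotease of the aggrecanase branch that is also known to restrain angiogenesis. The gene (ENSMUSG00000031994) lies on the plus strand of chromosome 9 of GRCm38 from 30942562 to 30962856, with a deposited gene length of 4613 bases, and its coding transcript in GENCODE M21 has 9 exons. Its counts ran from 106 to 554 per library, so no value rests on fewer than 106 counts. In whole muscle, fewer cells that make a transcript and less of it per cell cannot be told apart.

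In replicates 1 to 10 labelled *Npr1*+/-, *Adamts8* had 7.75, 6.55, 8.68, 7.87, 9.10, 6.65, 9.87, 9.88, 5.91 and 7.24 CPM. In replicates 1 to 6 labelled *Npr1*+/+, it had 8.76, 10.5, 8.16, 14.96, 17.7 and 9.98 CPM. The groups overlapped: 6 of the 10 libraries labelled *Npr1*+/- lay below every library labelled *Npr1*+/+, and 4 of the 6 labelled *Npr1*+/+ lay above every library labelled *Npr1*+/-. Replicates 4 and 5 labelled *Npr1*+/+ were the highest of all. The means were 7.95 ± 1.40 CPM (SD, n = 10) and 11.7 ± 3.80 CPM (SD, n = 6).

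The fitted log2 fold change of *Adamts8* was -0.88 (standard error 0.16, p = 4.18e-05, adjusted p = 0.300 in edgeR with Benjamini-Hochberg adjustment), the second smallest p of all genes, and it did not pass the threshold. In DESeq2 the adjusted p was 0.000703 at a log2 fold change of -0.87. The difference of mean log2 CPM without covariates was -0.51, and a two-sided exact permutation test over 8008 splits of the mice gave p = 0.00737. With labels exchanged only within cages (360 arrangements), the two-sided exact permutation test gave p = 0.0111. Without replicate 3 labelled *Npr1*+/+, the fitted value was -0.86 (adjusted p = 0.237 in edgeR), and the difference of means was -0.60 (exact permutation p = 0.00300). *Adamts8* was chosen for detail with earlier results of these data known. Its permutation p-values, here and in the next paragraph, are not adjusted for that choice and are no independent support.

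The cages contributed unequally to this difference. In cage 676, 3 libraries labelled *Npr1*+/- averaged 8.29 CPM of *Adamts8* against 17.7 CPM in the only library labelled *Npr1*+/+, a log2 difference of -1.10. In cage 678, 4 libraries averaged 7.55 CPM against 14.96 CPM in 1 library, a log2 difference of -1.01. In cage 675 (2 against 2) the log2 difference was -0.28 and in cage 677 (1 against 2) it was -0.04. All 4 differences had the same sign, but the 2 large ones each rest on 1 library labelled *Npr1*+/+, replicates 5 and 4. Without replicate 5 labelled *Npr1*+/+ the exact permutation test gave a difference of -0.38 (p = 0.0246), and without replicate 4 it gave -0.43 (p = 0.0210).

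**Figure D3:**
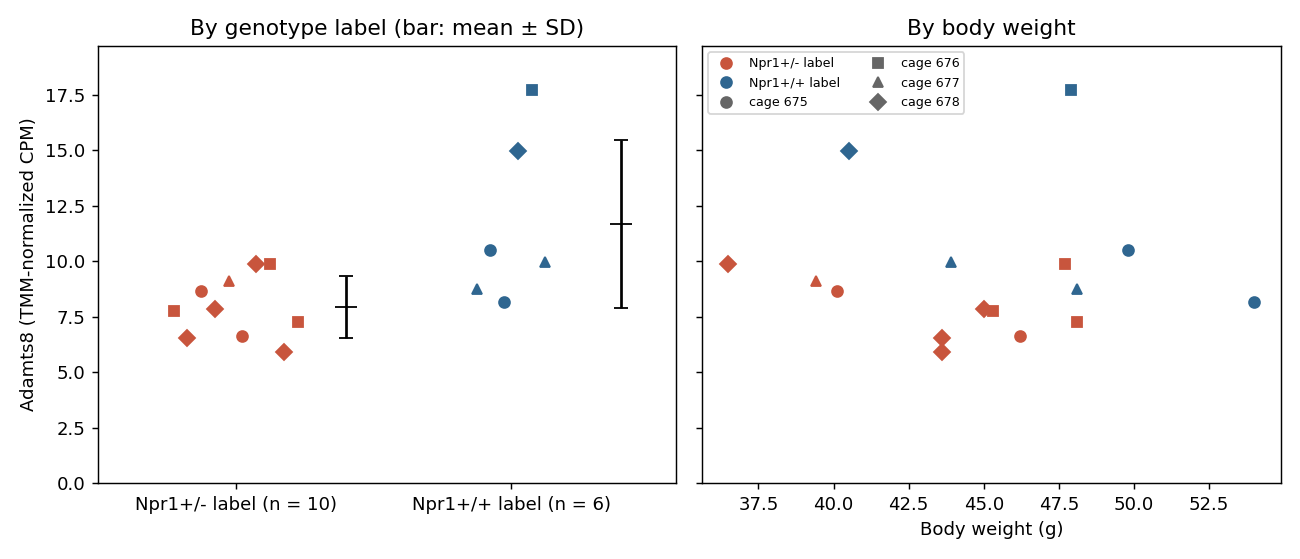
*Adamts8* in TMM-normalized CPM in each library, by genotype label (left, bars are mean ± SD, n = 10 and 6) and against body weight in g (right), with symbols for the 4 cages. Replicates 5 (cage 676) and 4 (cage 678) labelled *Npr1*+/+ are highest at 17.7 and 14.96 CPM, and the other 4 libraries with that label lie between 8.16 and 10.5 CPM, where the highest of the libraries labelled *Npr1*+/- also lie.

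No gene next to *Adamts8* passed the test by label. Within 250000 bases of the gene, 4 of the 8 genes with counts were tested, and *Adamts8* was the only 1 with an unadjusted p under 0.05. *Adamts15*, a related protease on the opposite strand 20110 bases away, had 0.693 to 4.41 CPM (median 1.74) in the libraries labelled *Npr1*+/- and 1.32 to 2.08 CPM (median 1.93) in those labelled *Npr1*+/+, and its log2 fold change was 0.03 with a standard error of 0.42. *Zbtb44* and Aplp2 had log2 fold changes of -0.18 and 0.02. An antisense gene, *Gm29724*, overlaps 8770 bases of *Adamts8* but had at most 4 counts in any library.

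Pairs of *Adamts8* with other members did not pass over the 16 libraries. Of the 528 pairs of tested members, 0 with *Adamts8* passed a permutation test of Pearson's r adjusted over all pairs. The values farthest from 0 were r = -0.51 with *Mmp19* and 0.47 with *Adamtsl5*. The genes most like *Adamts8* among all genes tested were *Snupn* (Pearson's r 0.80), *Cpne2* (0.74), *Csrp3* (0.72), *Phtf1* (0.67) and *Ankrd2* (0.67). Those most opposite were *Gm3608* (-0.81), *Gm16159* (-0.78), *Ap3s2* (-0.77), *Rps3a2* (-0.76) and *A930005H10Rik* (-0.74). These are extremes picked from 14331 genes in libraries that share labels and cages, so they carry no p. Without the 2 libraries farthest from the *Adamts8* median, r fell to 0.32 for *Csrp3*, a muscle LIM protein, and to 0.20 for *Ankrd2*, a titin-associated ankyrin repeat protein, and was 0.70 for *Snupn* and -0.76 for *Ap3s2*. None of the 13 marker lists tested had a summed level that tracked *Adamts8* at an adjusted p under 0.05 in permutation tests of Pearson's r, where the smallest, for tendon, mural, neutrophil, satellite and erythrocyte lists, was 0.802. The cartilage list, chosen after values of these data were seen and at most 0.805 CPM in sum, had r = -0.61 with *Adamts8* and carries no p. By genotype label, 1 B cell gene (of 1 tested) and 2 of 5 erythrocyte genes had an unadjusted p under 0.05 in edgeR, and no gene of the other lists did. B cell genes summed to 0.281 to 2.79 CPM in the libraries labelled *Npr1*+/- and 1.01 to 2.35 CPM in those labelled *Npr1*+/+. Erythrocyte genes summed to 88.0 to 509.7 CPM and 191.7 to 320.1 CPM. These 2 sums had r = 0.16 and -0.29 with *Adamts8* (adjusted permutation p = 0.927 and 0.802). Their part in its difference by label was not tested.

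The other ADAMTS genes by genotype label did not pass the test. *Adamts1*, which cleaves versican and restrains angiogenesis, had 10.9 to 51.3 CPM (median 28.1) in the libraries labelled *Npr1*+/- and 16.3 to 23.3 CPM (median 20.8) in those labelled *Npr1*+/+. The libraries labelled *Npr1*+/- spanned the whole range of the others on both sides, and the log2 fold change was 0.38 (standard error 0.34, p = 0.274 in edgeR). *Adamts6* had 1.39 to 3.03 CPM (median 2.14) against 1.46 to 2.84 CPM (median 2.04), and its log2 fold change was 0.25. *Adamts5*, the main aggrecanase, had 17.04 to 26.4 CPM (median 22.1) against 20.6 to 28.9 CPM (median 24.9), and its log2 fold change was -0.08 (standard error 0.15). The procollagen N-proteinases *Adamts2* and *Adamts14* had log2 fold changes of 0.03 and 0.06.

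Of the 5 ADAMTS-like genes, 3 were higher and 2 lower, and 0 passed. *Adamtsl2*, which binds microfibrils and dampens TGF-beta signalling, had 0.658 to 2.39 CPM (median 1.27) in the libraries labelled *Npr1*+/- against 0.359 to 1.71 CPM (median 1.10), and its log2 fold change was 0.47 (standard error 0.37). *Adamtsl5* had 35.7 to 61.6 CPM (median 53.3) against 44.2 to 62.9 CPM (median 52.0), and its log2 fold change was -0.26 (standard error 0.14, p = 0.0859 in edgeR). *Adamtsl4*, a fibrillin-binding protein, had 6.29 to 26.4 CPM (median 16.5) against 8.04 to 20.9 CPM (median 14.4). Its log2 fold change of -0.31 (standard error 0.31) had the opposite sign to the difference of its medians and was 0.10 with the genotype label alone.

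Of the 12 tested MMP genes, 7 were higher and 5 lower by the fitted value and 0 passed, and for 4 of them (*Mmp11*, *Mmp13*, *Mmp15* and *Mmp23*) the group means of CPM ran the other way. *Mmp17*, a membrane-anchored MMP, had the largest value, with 0.625 to 2.09 CPM (median 1.25) in the libraries labelled *Npr1*+/- and 0.487 to 1.51 CPM (median 0.816) in those labelled *Npr1*+/+. The groups overlapped over most of their range, and the log2 fold change was 0.71 (standard error 0.39, p = 0.0845 in edgeR). *Mmp19*, a secreted MMP, had 0.740 to 2.19 CPM (median 1.45) against 0.696 to 2.01 CPM (median 0.932), and its log2 fold change was 0.53 (standard error 0.34, p = 0.135 in edgeR). *Mmp3* (stromelysin 1) had 0.182 to 2.26 CPM (median 0.821) against 0.784 to 2.14 CPM (median 1.57), and its log2 fold change was -0.33 (standard error 0.38). *Mmp2* and *Mmp14*, the membrane MMP that activates the MMP2 proenzyme, had log2 fold changes of 0.14 (standard error 0.15) and -0.05 (standard error 0.16). *Mmp11* had a log2 fold change of -0.15 and overlaps *Chchd10* on the opposite strand, a gene at 677 CPM, and reads of both cannot be told apart if strand was not used in counting, which the sources used here do not say.

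Of the TIMP genes, 3 were higher and 1 lower by the fitted value, and 0 passed. *Timp4* had 37.6 to 106.5 CPM (median 83.3) in the libraries labelled *Npr1*+/- and 72.5 to 109.4 CPM (median 90.3) in those labelled *Npr1*+/+, and its log2 fold change was -0.29 (standard error 0.15, p = 0.0801 in edgeR). The 4 lowest libraries all carried the *Npr1*+/- label and all came from cage 678. *Timp1*, *Timp2* and *Timp3* had log2 fold changes of 0.10, 0.12 and 0.13, each smaller than its standard error. For *Timp1* the group means ran the other way, 3.62 ± 2.12 CPM (SD, n = 10) under the *Npr1*+/- label against 4.75 ± 1.31 CPM (SD, n = 6). *Timp1*, *Timp3* and *Timp4* lie inside the synapsin genes *Syn1*, *Syn3* and *Syn2* on the opposite strand, whose means were 0.0547, 0.281 and 1.54 CPM.

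Genes outside the families were taken from a list of matrix substrates, activators, inhibitors and related proteases. Of its 50 genes, 38 were tested, 23 were higher and 15 lower, and 0 had an unadjusted p under 0.05, beside a median log2 fold change of 0.08. Of 11 tested matrix substrates, 10 were higher in the libraries labelled *Npr1*+/- with a median of 0.22, where 48.4% of all genes were higher, and none passed the test. Among them were *Col1a2* (collagen I) at 0.22 (standard error 0.14), *Fn1* (fibronectin) at 0.51 (standard error 0.33) and *Vwf*, the substrate of ADAMTS13, at 0.63 (standard error 0.46). *Vwf*, made by endothelial cells, reached 50.9 CPM in the libraries labelled *Npr1*+/- and 9.21 CPM in those labelled *Npr1*+/+, where summed endothelial markers reached 507.1 and 264.8 CPM, and their part in its level was not tested. *Vcan* (versican), the proteoglycan that ADAMTS proteases cleave in soft tissue, was at -0.11 (standard error 0.23), and aggrecan (*Acan*) was too low to test. The activators split 3 to 4, with *Furin*, which cuts proenzymes of both families, at -0.06, and of the inhibitors *Reck*, a membrane MMP inhibitor, was at 0.26 and *Lrp1*, a receptor that clears proteases, at 0.27. The largest value was *Thsd4*, an ADAMTS-like gene with another symbol, at 1.02 (standard error 0.62, p = 0.118 in edgeR). It rests on 246 counts over all libraries, with 1 count in the lowest. Its median was 0.248 CPM in the libraries labelled *Npr1*+/+, near the 3-count limit of 0.0493 to 0.219 CPM per library.

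Along body weight, given per g in the same fit, 0 of 33 members had an adjusted p under 0.05 in edgeR, as did 0% of all genes. At an unadjusted p under 0.05, 8 members passed (24.2%), against 17.1% of all genes. They were *Adamts8*, *Adamtsl5*, *Mmp15*, *Adamtsl4*, *Adamtsl1* and *Timp3*, with lower levels in heavier mice, and *Timp1* and *Mmp3*, with higher levels. *Adamts8* had a slope of -0.07 log2 units per g (standard error 0.02, p = 0.00347, adjusted p = 0.245 in edgeR). *Timp1* had 0.656 to 8.11 CPM over the 16 libraries and a slope of 0.14 per g (standard error 0.05, adjusted p = 0.250 in edgeR). *Mmp15*, a membrane MMP, had 15.1 to 40.3 CPM and a slope of -0.08 per g (standard error 0.03, adjusted p = 0.245 in edgeR). The lightest mouse, replicate 7 labelled *Npr1*+/- with 36.5 g, had 0.774 CPM of *Timp1* and 36.0 CPM of *Mmp15*. The lowest level of *Timp1* (0.656 CPM) and the highest of *Mmp15* (40.3 CPM) were both in replicate 6 labelled *Npr1*+/-, a mouse of 46.2 g, which goes against both slopes.

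The body weight result turned on 1 library. Without replicate 3 labelled *Npr1*+/-, 10 of 33 members had an adjusted p under 0.05 in edgeR, against 22.1% of all genes. *Timp1* then had a slope of 0.25 per g (adjusted p = 0.00631), *Adamtsl1* -0.21 (0.0121), *Mmp15* -0.11 (0.0192) and *Adamtsl4* -0.16 (0.0200). The other 6 were *Timp2*, *Timp3*, *Adamtsl5*, *Adamts1*, *Adamts2* and *Adamts8*, all with negative slopes, and that of *Adamts8* was -0.08 (adjusted p = 0.0419 in edgeR). In each other fit with body weight, 0 members passed, and no reason to leave out this mouse is given in the labels.

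Across the 4 cages, 0 of 33 members had an adjusted p under 0.05 in edgeR's F test, against 0.0279% of all genes, and 4 (12.1%) had an unadjusted p under 0.05, against 7.36%. *Timp4* had the smallest (p = 0.000146, adjusted p = 0.174 in edgeR). Its 5 libraries of cage 678 had 46.6, 37.6, 43.2, 56.4 and 72.5 CPM, and the 11 libraries of the other cages had 74.3 to 109.4 CPM, so cage 678 did not overlap the others. *Adamts9* (p = 0.0181), a versican-cleaving protease, had 1.33 to 2.98 CPM in the 4 libraries of cage 676, and its highest levels, 9.65 and 8.83 CPM, were in replicates 6 and 7 labelled *Npr1*+/- of 2 other cages. *Adamts8* (p = 0.0213) and *Mmp12* (p = 0.0315) were the others. Without replicate 3 labelled *Npr1*+/-, 2 members passed the adjusted threshold, *Timp4* (adjusted p = 0.0211) and *Adamts9* (adjusted p = 0.0223 in edgeR), against 6.08% of all genes.

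**Figure D4:**
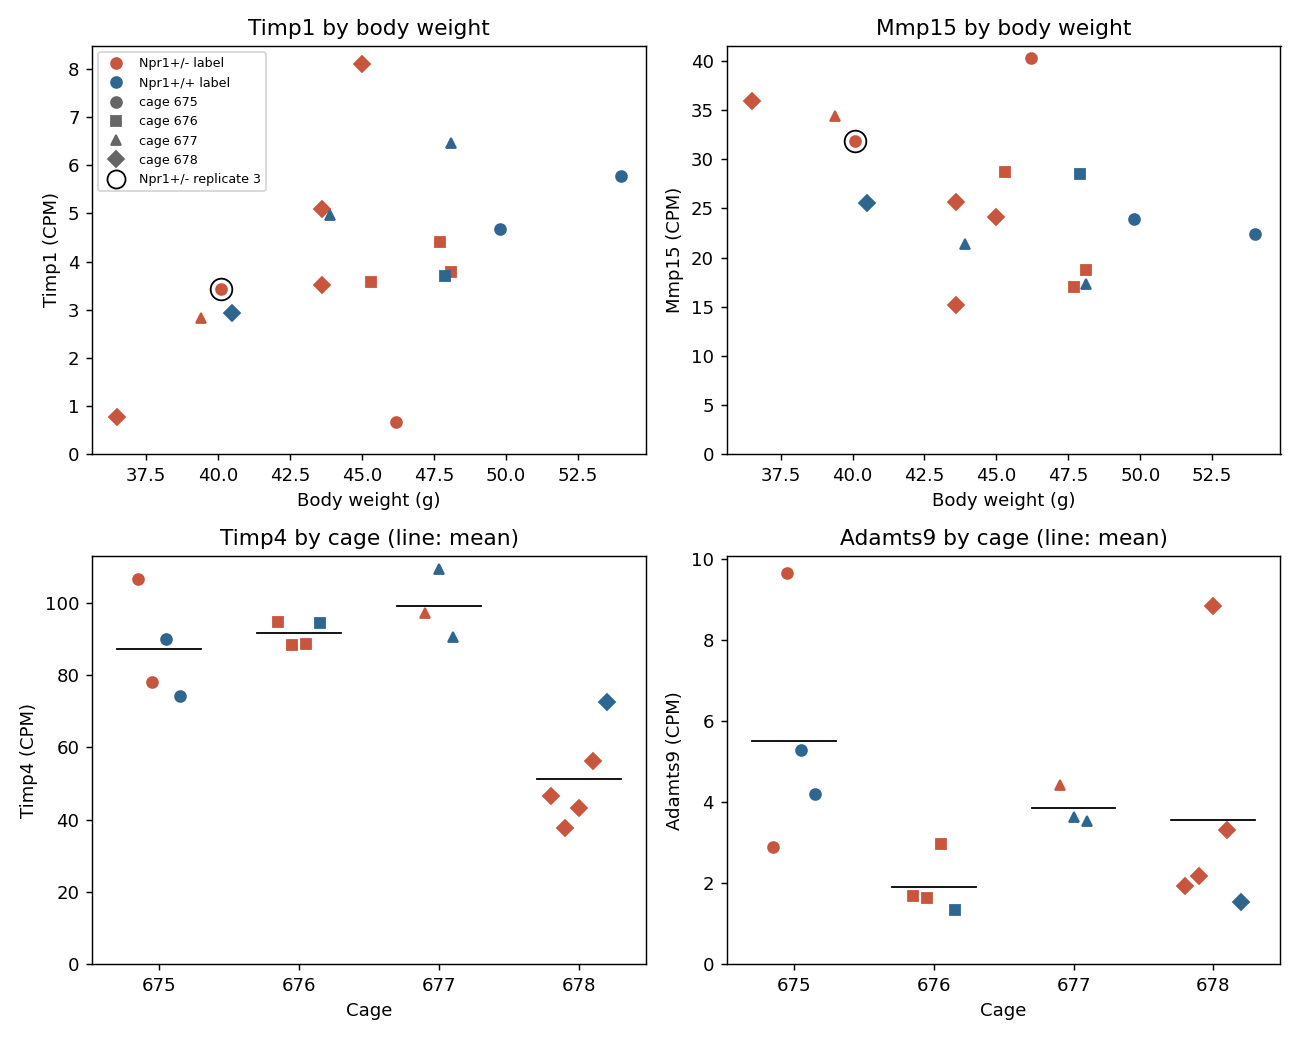
*Timp1* and *Mmp15* in CPM against body weight in g (top) and *Timp4* and *Adamts9* in CPM by cage (bottom, lines are means), with colours for the genotype label, symbols for the cage and a ring around replicate 3 labelled *Npr1*+/-. All 5 libraries of cage 678 lie below 74.3 CPM of *Timp4*, the lowest value in the other cages.

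Levels of some members varied together over the 16 libraries. Of the 528 pairs of tested members, 18 had adjusted p-values under 0.05 over all pairs in permutation tests of both Pearson's r and Spearman's rho (100000 permutations, n = 16), 15 positive and 3 negative. Members were no more often paired than other genes: 3.6% of their pairs had an absolute r of at least 0.69 and an absolute rho of at least 0.74, the smallest among the 18, against 6.48% of the 102681615 pairs of all genes tested. The closest pair was *Adamtsl4* and *Mmp15*, with r = 0.94 and rho = 0.92 (permutation p = 1e-05 for each, the smallest these can give, adjusted p = 0.00528), and r was 0.91 without the 2 libraries farthest from the median of *Adamtsl4*. *Adamtsl5* went with both (r = 0.84 with *Adamtsl4* and 0.82 with *Mmp15*). *Adamts2* and *Timp2* had r = 0.87, *Mmp3* and *Mmp23* had r = 0.80, and *Adamts9* and *Adamts15* had r = 0.76. The negative pairs were *Mmp15* with *Timp1* (r = -0.73), *Mmp3* with *Timp3* (r = -0.76) and *Mmp23* with *Timp3* (r = -0.71). With levels centred on cage means and libraries exchanged only within cages, an alternative added after the data were seen, 13 pairs passed both permutation tests, 10 of them among the 18, and all 18 kept their sign (absolute r from 0.70 to 0.94). *Adamts9* and *Adamts15* (r = 0.73, adjusted p = 0.122), *Mmp15* and *Timp1* (r = -0.72, adjusted p = 0.0569) and *Mmp23* and *Timp3* (r = -0.70, adjusted p = 0.0867) were among the 8 that no longer passed the permutation test. Without replicates 6 and 7 labelled *Npr1*+/-, also added after the data were seen, 2 of the 528 pairs passed both permutation tests, *Adamtsl4* with *Mmp15* (r = 0.93) and *Adamtsl4* with *Adamtsl5* (r = 0.84), and all 18 kept their sign (absolute r from 0.51 to 0.93). Most of the calls were thus lost without those 2 libraries. That leaves 14 libraries, and no other 2 were left out in these tests for comparison.

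Many of these pairs lie along the main axis of the libraries. The first principal component of all tested genes held 43.7% of the variance, and 39.3% of the 14331 genes had an absolute r above 0.7 with it. *Mmp15* (r = -0.86), *Timp3* (-0.86) and *Adamtsl4* (-0.85) stood at one end and *Timp1* (0.80), *Mmp3* (0.75) and *Mmp23* (0.70) at the other. The libraries lowest on this component were replicates 7 and 6 labelled *Npr1*+/- (-0.55 and -0.46, against at least -0.30 in the other 14). The same 2 libraries had the highest sums of endothelial markers, 507.1 and 461.3 CPM against at most 335.3 CPM in the others, and of muscle fibre transcripts, 129552 and 116664 CPM against at most 91471 CPM. Across genes, r with this component fell with gene length (Spearman's rho -0.53, over genes that are not independent replicates), and the part of length or of these markers in the pairs was not tested. *Adamts8* had r = -0.02 with this component, *Mmp12* 0.02 and *Mmp13* 0.39.

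*Mmp13*, chosen for a closer description after its values were seen, had the most uneven level of the abundant members. Its lowest libraries were replicates 6 and 7 labelled *Npr1*+/- with 1.41 and 3.05 CPM and replicate 4 labelled *Npr1*+/+ with 3.76 CPM, and its highest were replicate 2 labelled *Npr1*+/+ with 71.5 CPM and replicate 4 labelled *Npr1*+/- with 67.8 CPM. Low and high libraries occurred under both labels, and the log2 fold change by label was 0.38 with a standard error of 1.05, opposite in sign to the group means of 24.9 ± 20.2 CPM (SD, n = 10) under *Npr1*+/- and 38.2 ± 22.2 CPM (SD, n = 6) under *Npr1*+/+. These levels rest on 30 to 2255 counts per library. *Mmp9* (gelatinase B), on another chromosome, followed it with r = 0.87 and rho = 0.81 (adjusted permutation p = 0.00528 and 0.0165), and without replicates 6 and 7 labelled *Npr1*+/-, the 2 libraries farthest from the *Mmp13* median, r was 0.78 (adjusted permutation p = 0.0383) and rho 0.72 (adjusted permutation p = 0.205). *Timp1* had r = 0.82 with *Mmp13*, falling to 0.48 without those 2 libraries, so that relation rests on them.

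Over all genes tested, those most like *Mmp13* were *Ibsp* (r = 0.97), *Postn* (0.94), *Fap* (0.89), *Spp1* (0.89), *Edil3* (0.87), *Mmp9* (0.87) and *Bglap2* (0.85). *Ibsp*, *Spp1* and *Bglap2* code for proteins of bone matrix, and *Postn* for periostin. A list of 7 bone genes, assembled after this was seen, had 5 tested members and summed to 27.7 to 38.6 CPM in the libraries labelled *Npr1*+/- and 21.8 to 49.6 CPM in those labelled *Npr1*+/+. A list of 5 osteoclast genes had 3 tested members and summed to 8.05 to 45.7 CPM and 23.9 to 39.6 CPM, whereas cartilage genes summed to at most 0.805 CPM. The summed bone level had r = 0.61 and rho = 0.68 with *Mmp13* (r = 0.83 without the 2 farthest libraries), and the summed osteoclast level had r = 0.76 and rho = 0.58 (r = 0.40 without them). The bone, osteoclast and cartilage lists were all chosen after these values were seen, so their relations carry no p. None of the other 13 lists had an adjusted permutation p under 0.05 with *Mmp13* (26 relations with *Mmp13* and *Adamts8*). Muscle fibre transcripts had r = -0.64 with *Mmp13* (adjusted permutation p = 0.206, rho = -0.52) and endothelial markers r = -0.51 (adjusted permutation p = 0.524, rho = 0.00294), and r was -0.27 and 0.31 without the 2 farthest libraries. The part of these lists in the level of *Mmp13* was not tested.

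**Figure D5:**
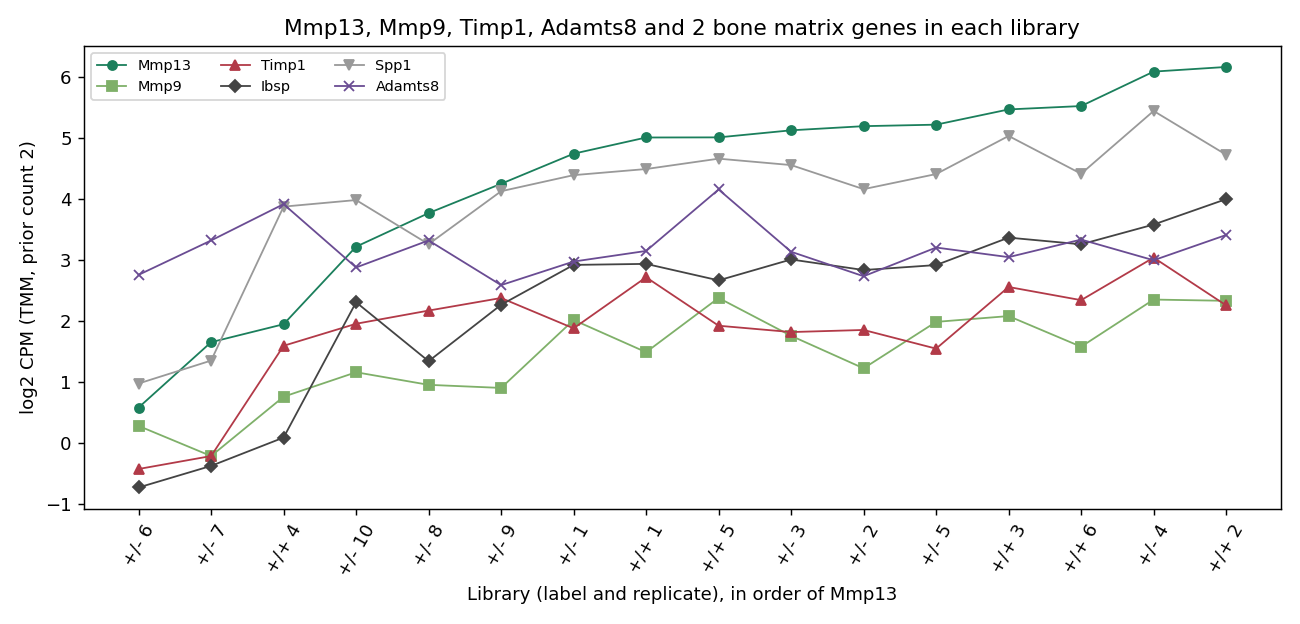
Levels (log2 CPM) of *Mmp13*, *Mmp9*, *Timp1*, *Adamts8*, *Ibsp* and *Spp1* in each of the 16 libraries, ordered by *Mmp13* and named by label and replicate. *Mmp13* and *Ibsp* are lowest in the same 3 libraries (replicates 6 and 7 labelled *Npr1*+/- and replicate 4 labelled *Npr1*+/+), and *Adamts8* does not follow this order.

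*Mmp13* belongs to a cluster of MMP genes near the start of chromosome 9, the chromosome that holds 13 of the 51 members. The 250 bases upstream of its start are shown with those of *Mmp3* and *Mmp12*, the 2 other tested members of the cluster, because these neighbours are compared with each other next. The sequences are those of RefSeq on GRCm38.p6, plus strand, at chr9:7272264-7272513 for *Mmp13* and chr9:7445572-7445821 for *Mmp3*. RefSeq has 2 starts for *Mmp12*, with windows at chr9:7344147-7344396, by the start of the deposited gene at 7344381, and at chr9:7347124-7347373, and both are shown. Capitals mark TGANTCA, the form bound by AP-1 factors, and AACCACA, the form bound by RUNX factors, each searched on both strands.

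Mmp13: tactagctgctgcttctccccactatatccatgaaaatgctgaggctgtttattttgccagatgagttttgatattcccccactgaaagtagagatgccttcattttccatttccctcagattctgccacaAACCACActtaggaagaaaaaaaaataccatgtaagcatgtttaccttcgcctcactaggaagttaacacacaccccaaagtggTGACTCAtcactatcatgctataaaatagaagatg
Mmp3: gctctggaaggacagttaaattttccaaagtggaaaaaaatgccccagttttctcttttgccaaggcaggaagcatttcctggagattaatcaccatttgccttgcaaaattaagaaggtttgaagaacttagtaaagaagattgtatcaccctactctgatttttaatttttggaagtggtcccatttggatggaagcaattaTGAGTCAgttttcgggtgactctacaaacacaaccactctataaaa
Mmp12 (upstream start): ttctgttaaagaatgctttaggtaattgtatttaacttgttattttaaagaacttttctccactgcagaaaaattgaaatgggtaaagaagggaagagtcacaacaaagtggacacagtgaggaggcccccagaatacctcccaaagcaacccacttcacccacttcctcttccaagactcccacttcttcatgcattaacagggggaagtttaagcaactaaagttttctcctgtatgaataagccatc
Mmp12 (downstream start): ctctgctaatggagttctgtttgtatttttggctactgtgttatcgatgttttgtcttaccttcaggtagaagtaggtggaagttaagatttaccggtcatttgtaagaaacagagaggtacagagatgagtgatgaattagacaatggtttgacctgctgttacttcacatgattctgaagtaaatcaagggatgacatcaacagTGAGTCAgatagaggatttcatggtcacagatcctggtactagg

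The TGANTCA sequence began 35 bases before the start in *Mmp13*, 46 in *Mmp3* and 44 before the downstream start of *Mmp12*, the window at the upstream start of *Mmp12* held none, and it occurred in the same window of 6.75% of 32841 promoters. AACCACA began 119 bases before the start of *Mmp13* and occurred in 4.40% of promoters, and both occurred in 0.344%. Of the 36 members with a promoter in the table, 22 were tested members, and of these 3 held TGANTCA and 1 held AACCACA. Of the 14 that were too low to test, 5 held TGANTCA (*Mmp1a*, *Mmp1b*, *Mmp7*, *Mmp10* and *Mmp20*, of which 4 had 0 counts in every library) and 2 held AACCACA. A match of letters is a description of the window and says nothing of binding. Over the 16 libraries, levels of *Mmp13* had r = 0.32 with *Mmp3* (adjusted permutation p = 0.513) and r = -0.09 with *Mmp12* (adjusted permutation p = 0.897).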

How the data were processed

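Bulk mRNA-seq of skeletal muscle from 16 mice was used, with groups, cage and body weight taken from the labels. The authors mapped reads to GRCm38 (STAR 2.7.2b and featureCounts 1.6.4 in the submitters' processing notes; the paper gives another featureCounts version) and deposited raw counts per gene of GENCODE M24, counting fragments with both ends aligned, beside a gene length for each gene. The labels name a Tecan kit and the paper's methods a TruSeq stranded kit. No values were normalized before deposit. Coordinates are those of the deposited table (GRCm38), and 55144 of 55471 identifiers were paired with a symbol.

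Counts were analysed in R 4.3.3 with edgeR 4.0.16: filterByExpr by label, TMM, glmQLFit (robust = TRUE, legacy = TRUE) and glmQLFTest on genotype label, cage and body weight, with Benjamini-Hochberg adjustment over all 14331 genes tested and a threshold of 0.05. log2 CPM used a prior count of 2. Single genes were compared by exact permutation over mice, and correlations by 100000 permutations. The steps were tested on simulated data. Library totals of 15273472 to 59682677 put the floor of 3 counts between 0.0493 and 0.219 CPM, for counting error only. The members and lists were chosen with earlier results of these data known. Named genes were *Adamts8*, the 5 members higher and 5 lower with the smallest p by label, members with the smallest p by weight or cage, the 5 highest per kilobase, neighbours of *Adamts8*, overlapping genes, members too low to test and the genes most and least like *Adamts8*; others named were chosen after their values were seen. Alternatives tried covered the covariates, a replicate block, scaling, DESeq2 1.42.0, limma-voom (limma 3.58.1), filters and leaving out each mouse. Coding stretches came from GENCODE M21 transcripts and promoters from RefSeq (GRCm38.p6); the promoter of *Adamts8* is not shown, and some overlaps of members with other genes are not reported here.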

Additional observations from a re-analysis of the deposited data

Results flagged for a closer look

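In 5 of 66 groups of 6 or 10 libraries tested (33 members under 2 labels), the highest or lowest library stood apart from the rest by the gap-to-range ratio of Dixon (above 0.466 for 10 libraries and 0.625 for 6). Chance gives about 1 in 20 such groups, or 3.3 of 66. *Mmp12* was high in replicate 2 labelled *Npr1*+/- at 3.13 log2 CPM (143 counts, 8.67 CPM), where the next library had 0.48 log2 CPM. *Adamts12* was high in replicate 7 with the same label at 2.56 log2 CPM (128 counts), where the next had 2.04. *Mmp13* was low in replicate 4 labelled *Npr1*+/+ at 1.94 log2 CPM (54 counts), where the next had 5.01. *Adamtsl1* and *Timp2* were both low in replicate 1 labelled *Npr1*+/+, at -0.88 log2 CPM (14 counts) and 5.48 log2 CPM (1366 counts), where the next libraries had 0.74 and 6.12.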

How the results depend on the processing

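For *Adamts8* by genotype label, all 27 alternatives kept a negative log2 fold change (-0.96 to -0.55), and its adjusted p ran from 0.000703 to 1, under 0.05 in DESeq2 alone (-0.87, 1 member called). Its exact permutation difference was -0.60 to -0.38 when each mouse was left out in turn. Members at an unadjusted p by genotype label numbered 2 with the label alone, with label and body weight, and without a filter on low counts (where *Adamts17* joined), and 1 to 3 with each mouse left out, the most without replicate 7 or 9 labelled *Npr1*+/-. The share of all genes was 1.05% in the main fit and 1.11% without replicate 3 labelled *Npr1*+/+. It is not given for the other fits, so those counts are not read against all genes. Genes of the matrix list at an unadjusted p numbered 3 with the label alone or label and cage, 1 with label and body weight or without a filter, and 0 to 1 with each mouse left out. The main fit tested 38 genes of that list, and these counts likewise are not read against all genes. Members called by body weight were 0 to 10 and by cage 0 to 2 with each mouse left out, the highest without replicate 3 labelled *Npr1*+/-. In that fit 22.1% of all genes were called by body weight and 6.08% by cage. At an unadjusted p, members numbered 5 to 14 by body weight and 3 to 10 by cage with each mouse left out. By body weight with label only, 4 members had an unadjusted p under 0.05. The unadjusted shares of all genes were 17.1% by body weight and 7.36% by cage in the main fit, and are not given for these fits. The body weight slope of *Adamts8* ran from -0.08496 to -0.06565 per g with each mouse left out, past the threshold without replicate 3 labelled *Npr1*+/- (-0.08). The log2 fold change of *Adamtsl4* by label turned positive with the label alone (0.10), with label and cage (0.11) and without replicate 5 labelled *Npr1*+/+ (range -0.54 to 0.10 over the mice left out), and the cause was not tested. Pairs of members that passed both correlation tests numbered 18 over all libraries and 2 without replicates 6 and 7 labelled *Npr1*+/-.

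Replicate numbers were shared by mice that are not the same animal, and the numbers did not pair them: deviations from group means had r between 0.03 and 0.17 (6 pairs, mean 0.08), and 0 of 6 libraries labelled *Npr1*+/+ and 2 of 6 partners labelled *Npr1*+/- correlated best with their own number. With the replicate block in place of cage, 9 of the 33 tested members had an unadjusted p under 0.05 by genotype label. The share of all genes was 9.03%. By body weight 4 of the 33 members had one, where the share of all genes was 1.48%. By genotype label 4 genes of the matrix list had one, *Adamtsl4* was at 0.35, and 0 members were called. Replicates 7 to 10 labelled *Npr1*+/- have no partner under that block, so they do not enter its comparison of labels.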
